A study of Homo sapiens with 45 samples.

Results

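The genes described here are 8 glycosyltransferase genes of ganglioside synthesis, namely UGCG, B4GALT5, B4GALT6, ST3GAL5, ST8SIA1, B4GALNT1, B3GALT4 and ST8SIA5. They were listed by their place in the pathway, not picked by a cutoff on measured values, and they were 8 of 41582 genes to which the deposited transcripts could be assigned. Their RNA was read in 45 libraries of poly(A) RNA made from human sarcoma cell lines. There were 7 Ewing sarcoma lines (TC71, SKES1, RDES, MHHES1, A673, EW24 and EW3) and 6 osteosarcoma lines (U2OS, SAOS2, MG63, KHOS, HOS-MNNG and G292), each with 3 libraries and no treatment named in the labels. The other 6 libraries came from A673 cells with sh908, a short hairpin RNA against the potassium channel gene KCNN1 that doxycycline switches on, 3 without and 3 with the drug. The labels of the parental A673 libraries name no hairpin vector, and the labels do not say whether the sh908 cells are a clone or a pool. HOS-MNNG and KHOS both derive from the HOS line. The labels do not say that replicates were separate cultures, so p-values from replicate libraries measure only the spread between these libraries, which may be technical.

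Gangliosides are membrane glycolipids that carry sialic acid. UGCG puts glucose on ceramide, B4GALT5 and B4GALT6 add galactose to give lactosylceramide, and ST3GAL5 adds the first sialic acid to give GM3. ST8SIA1 (GD3 synthase) then adds a further sialic acid to turn GM3 into GD3, and B4GALNT1 (GM2/GD2 synthase) adds N-acetylgalactosamine to GM3 or GD3 to give GM2 or GD2. B3GALT4 extends GM2 and GD2 to GM1 and GD1b, and ST8SIA5 adds sialic acid to make more highly sialylated forms. GD2 is a cell surface antigen of neuroblastoma, and of part of osteosarcomas and Ewing sarcomas, against which therapeutic antibodies are directed. The lipid itself was not measured in these data, which hold RNA only.

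ST8SIA1 had the lowest level per transcript length of the 8 genes in 8 of 13 lines. It reached 2.62 TPM (a level corrected for transcript length and library depth) in G292 and 2.36 TPM in MG63, both osteosarcoma lines, and 0.395 TPM in the Ewing sarcoma line TC71. The other 10 lines were under 0.2 TPM. B4GALNT1, whose product makes GD2 from GD3, was above 5 TPM in all 13 lines and stood at 294 TPM in G292, 6.63-fold above the next line (4.61-fold in counts scaled by TMM, for library size and composition). No member passed the test between the tumour types, where 14.4% of all genes did. None passed it when doxycycline switched on the KCNN1 hairpin, where 0% of all genes did and KCNN1 itself did not. With same-numbered libraries paired, 0.512% of genes were called. KCNN1 was among them (log2 fold change -1.46, edgeR adjusted p = 0.00132), and no member was. UGCG was lower in uninduced sh908 cells than in parental A673, a call that 6 of 12 other settings kept, where 15.1% of all genes were called.

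In the RefSeq annotation of GRCh38.p14, UGCG (gene ID 7357) lies at chr9:111896814-111935369, B4GALT5 (9334) at chr20:49632945-49713878 and B4GALT6 (9331) at chr18:31622246-31724641. ST3GAL5 (8869) lies at chr2:85837120-85889034 and ST8SIA1 (6489) at chr12:22193391-22334707. B4GALNT1 (2583) lies on the same chromosome at chr12:57623409-57633201, B3GALT4 (8705) at chr6:33277123-33278825 and ST8SIA5 (29906) at chr18:46667821-46757053. All 8 are protein coding genes. The values are sums over every listed transcript of a gene, from 1 transcript for B3GALT4 to 20 for ST3GAL5.

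The RefSeq promoter table of GRCh38.p14 held 1 start each for ST8SIA1, UGCG and B4GALT5, and 5 for ST3GAL5. The promoters are shown for ST8SIA1, the gene whose level separated the lines at the GD3 step, and for UGCG and B4GALT5, the members with the largest falls in log2(TPM + 1) from parental A673 to the sh908 cells. Each is the 250 bases before the start, read 5′ to 3′ on the strand of the gene. GGAA or TTCC is in capitals, because GGAA is the core of the sites bound by ETS proteins such as the EWS-FLI1 fusion of Ewing sarcoma. The windows are chr12:22334708-22334957 (minus strand) for ST8SIA1, chr9:111896564-111896813 (plus strand) for UGCG and chr20:49713879-49714128 (minus strand) for B4GALT5.
ST8SIA1: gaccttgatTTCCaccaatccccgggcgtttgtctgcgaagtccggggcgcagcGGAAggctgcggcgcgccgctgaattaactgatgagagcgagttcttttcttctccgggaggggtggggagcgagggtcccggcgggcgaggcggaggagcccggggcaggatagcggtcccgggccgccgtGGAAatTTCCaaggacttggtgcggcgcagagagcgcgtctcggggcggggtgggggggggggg
UGCG: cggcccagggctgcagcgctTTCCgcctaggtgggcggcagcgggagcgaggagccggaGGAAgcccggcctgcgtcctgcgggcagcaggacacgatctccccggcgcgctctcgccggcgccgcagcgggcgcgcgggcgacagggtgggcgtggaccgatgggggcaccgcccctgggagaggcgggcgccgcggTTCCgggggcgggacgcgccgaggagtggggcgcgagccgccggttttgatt
B4GALT5: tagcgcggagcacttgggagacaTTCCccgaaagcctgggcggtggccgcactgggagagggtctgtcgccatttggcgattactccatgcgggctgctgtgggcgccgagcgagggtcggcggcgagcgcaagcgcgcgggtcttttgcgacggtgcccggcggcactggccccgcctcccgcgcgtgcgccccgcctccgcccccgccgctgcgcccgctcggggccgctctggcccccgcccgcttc

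The ST8SIA1 window held GGAA or TTCC 4 times, the UGCG window 3 times and the B4GALT5 window 1 time, with both strands searched and overlaps counted. Of 35116 windows of the same length, 92.7% held the motif, with a median of 3. The repeat GGAAGGAA or TTCCTTCC was in none of the 3 windows and in 3.06% of all windows. The GC box GGGCGG or CCGCCC was there 1 time for ST8SIA1 and 3 times each for UGCG and B4GALT5, and 42.6% of all windows held it. The windows were 69.2%, 78.4% and 75.6% GC in the order shown, against a median of 58%. These matches describe the letters of the windows only.

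The depth of a library, as its summed estimated count, lay between 23132161 and 51413254 for Ewing sarcoma, between 15974173 and 44911542 for osteosarcoma and between 16619617 and 24818664 for the sh908 cells. The summed level of 6 Ewing sarcoma markers (NKX2-2, NR0B1, STEAP1, CD99, PAX7 and CCK) ran from 1003 TPM in MHHES1 to 2236 TPM in EW3 among the Ewing sarcoma lines, and from 147 TPM in U2OS to 969 TPM in MG63 among the osteosarcoma lines. NKX2-2 was at 17.9 to 139 TPM in the Ewing sarcoma lines and at most at 5.55 TPM in osteosarcoma, while NR0B1 was only at 0.651 TPM in MHHES1 and 0.316 TPM in RDES. STEAP1 was at 91.1 to 331 TPM in Ewing sarcoma and at most at 78.8 TPM in osteosarcoma. CD99 gave 944 of the 969 TPM in MG63 and was at 290 TPM in EW24, so it did not separate the tumour types. PAX7 was at 3.73 TPM in A673 and 9.91 TPM in SAOS2. CCK was at only 1.03 TPM in TC71, against at most 0.524 TPM in osteosarcoma. The summed level of 6 osteoblast markers was 9.03 to 321 TPM in Ewing sarcoma and 115 to 4344 TPM in osteosarcoma, and SP7, a defining osteoblast factor, was at 22.1 TPM in SAOS2 and near 0 in the other lines. Blood markers (PTPRC and CD3E) summed to at most 1.23 TPM in a line. Epithelial markers (EPCAM, KRT8 and CDH1) summed to 2.94 to 22.5 TPM in Ewing sarcoma and 4.09 to 802 TPM in osteosarcoma, with KRT8 at 793 TPM in HOS-MNNG and 478 TPM in U2OS. Melanocyte markers (MLANA, PMEL and TYR) reached 23.5 TPM in RDES, nearly all of it PMEL, and under 1 TPM in each osteosarcoma line. The part of these markers in the members' levels was not tested. A lower level in these bulk libraries cannot be told apart between fewer expressing cells and less RNA per cell.

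At the first step, UGCG was most abundant in SAOS2. Its TPM in the 3 SAOS2 libraries was 85.0, 72.2 and 71.4, and in MG63, the next line, 39.3, 34.6 and 27.9. All SAOS2 libraries were above all MG63 libraries. The other 11 lines lay between 8.64 TPM in TC71 and 26.1 TPM in KHOS, and only 3 of 12 neighbouring pairs in the order of the lines had libraries that did not overlap. The median over lines was 17 TPM in Ewing sarcoma and 24.1 TPM in osteosarcoma, and the ranges of the line means overlapped.

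The lactosylceramide step had 1 even and 1 uneven gene. B4GALT5 was above 29 TPM in all 13 lines, with its highest level in RDES at 111 ± 8.53 TPM (SD, n = 3) and its lowest in MG63 at 29.3 ± 1.39 TPM, a ratio of 3.78. B4GALT6, the other lactosylceramide synthase gene, ran from 0.0512 ± 0.00607 TPM in SKES1 to 36.9 ± 6.65 TPM in RDES, a ratio of 721. The 3 RDES libraries held 40.2, 41.4 and 29.3 TPM of B4GALT6, and the 3 SKES1 libraries 0.0486, 0.0469 and 0.0582 TPM, from 24.5 estimated counts in all.

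EW24, SKES1 and TC71 were the 3 lines under 0.5 TPM of B4GALT6, and all are Ewing sarcoma lines. The lowest osteosarcoma line was U2OS at 3 ± 0.844 TPM, but the Ewing sarcoma lines RDES, MHHES1 and EW3 were above it, so the ranges of the tumour types overlapped. B4GALT6 gave 0.106% ± 0.0137 of the summed TPM of both genes in SKES1, 25.1% ± 4.78 in RDES and 34% ± 2.15 in HOS-MNNG (n = 3 each). B4GALT5 was the higher of both in all 13 lines. For B4GALT6, 6 of 12 neighbouring pairs of lines did not overlap, the most of any member.

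ST3GAL5, which makes GM3, the branch point of the pathway, was highest in G292 and SAOS2. The G292 libraries ranged from 37.9 to 57.1 TPM and the SAOS2 libraries from 42.7 to 47.9 TPM, so these lines could not be put in order. The next line, MHHES1, was at 23.3 ± 1.29 TPM, below every SAOS2 library. The lowest was EW24 at 7.25 ± 0.723 TPM. The lines from SKES1 at 9.47 TPM up to MHHES1 formed a run in which each line overlapped its neighbour.

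**Figure D1:**
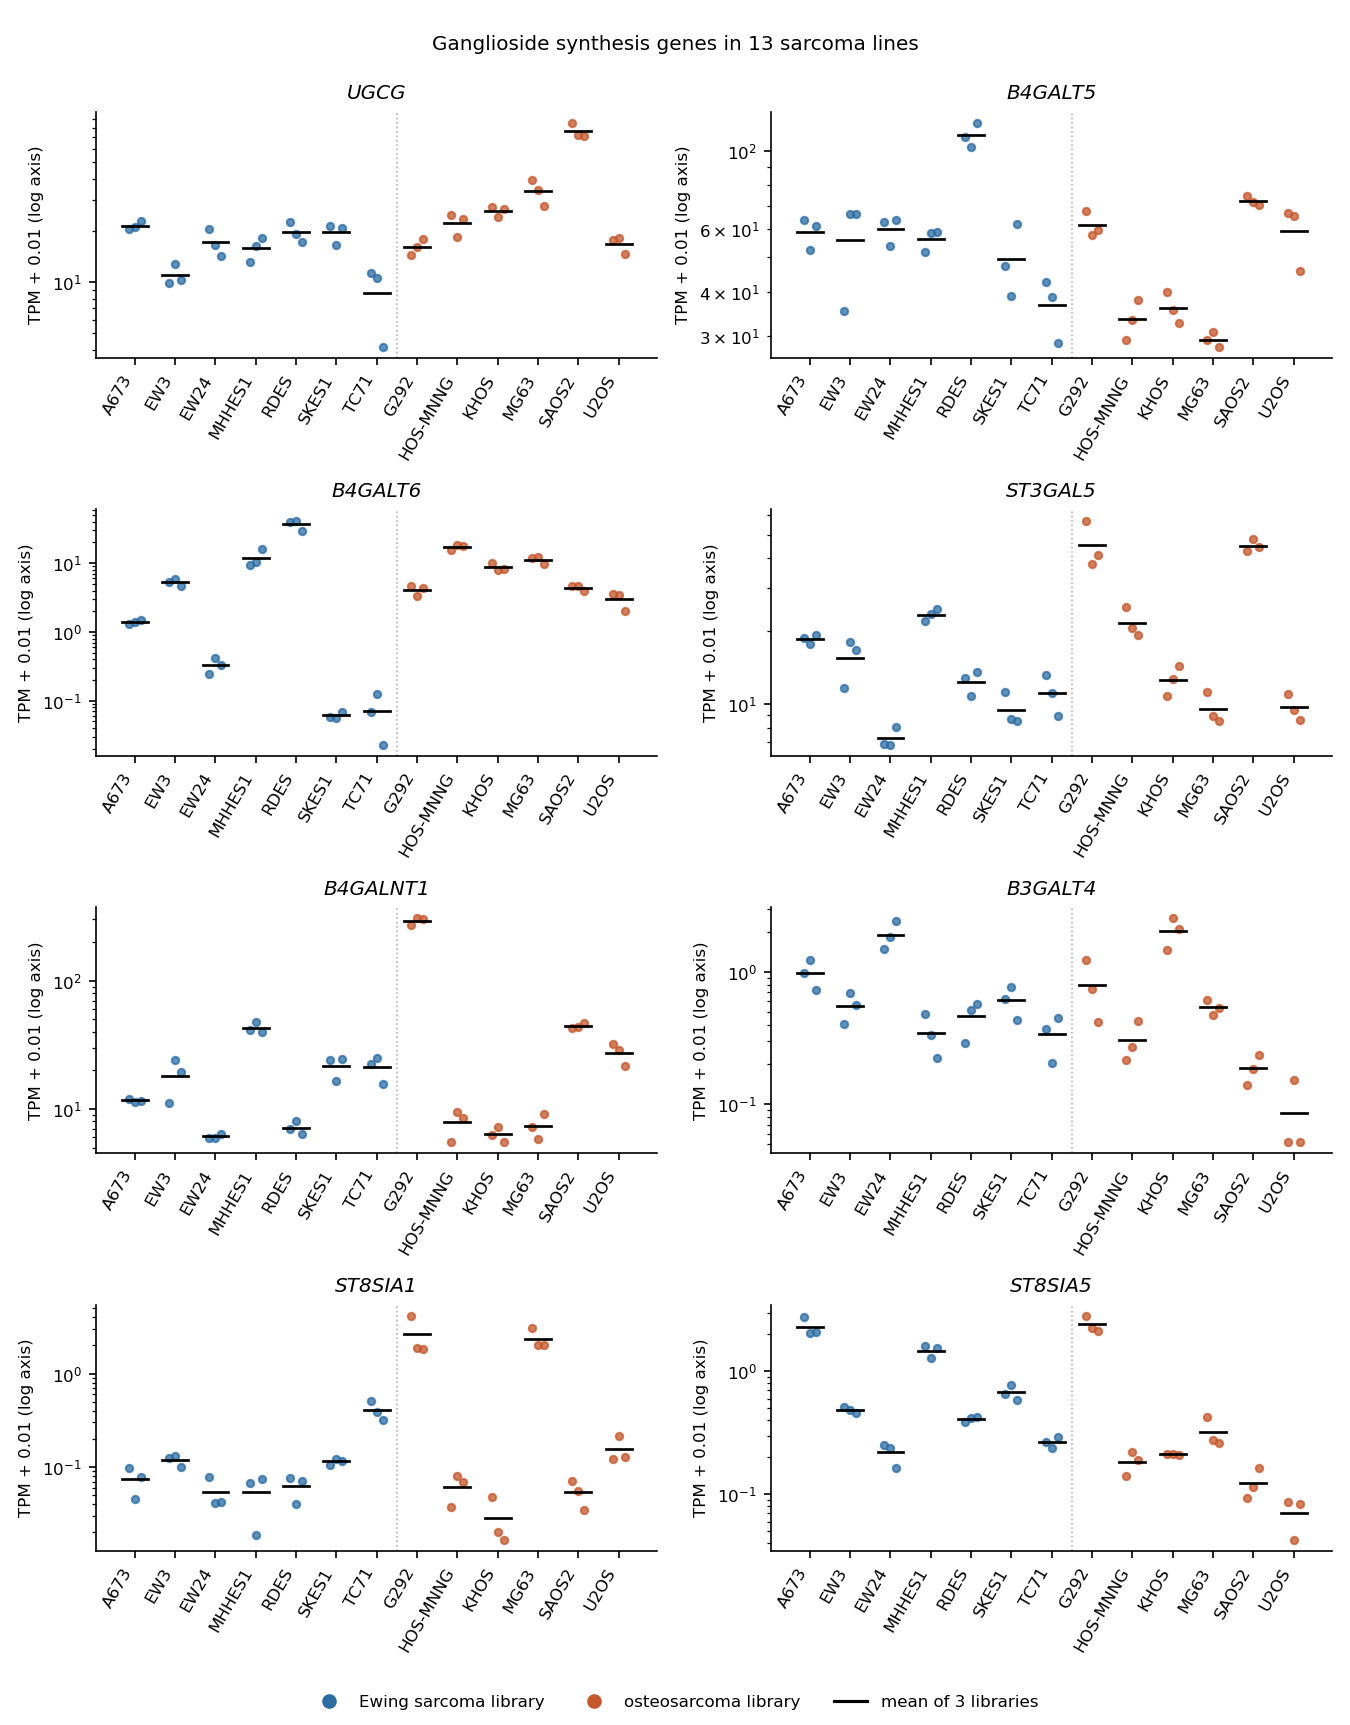
Level of each of the 8 genes in 13 lines, as TPM plus 0.01 on a log axis; each point is a library and each black line the mean of 3 libraries, with the Ewing sarcoma lines left of the dotted line. ST8SIA1 stands above 1 TPM only in G292 and MG63, B4GALNT1 is highest in G292 at 294 TPM, and B4GALT6 spreads from 0.0512 TPM in SKES1 to 36.9 TPM in RDES while B4GALT5 stays between 29.3 and 111 TPM.

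ST8SIA1 split the lines at the step from GM3 to GD3. The G292 libraries held 4.13, 1.89 and 1.84 TPM, the MG63 libraries 3.09, 2 and 1.99 TPM, and the TC71 libraries 0.504, 0.374 and 0.309 TPM. G292 and MG63 overlapped each other and lay wholly above TC71, and TC71 lay wholly above U2OS, the next line at 0.145 ± 0.0510 TPM. The lower of G292 and MG63 was 5.97-fold above TC71. At the bottom, KHOS stood at 0.0182 ± 0.0170 TPM.

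The counts behind the low values are small. All 3 libraries of a line together held 1556 estimated counts of ST8SIA1 in G292, 734 in MG63, 209 in TC71 and 60.2 in U2OS, against 10.5 in KHOS, 17.8 in MHHES1 and 18.8 in SAOS2. At this depth the order among the 9 lines below U2OS is mostly within the spread of the libraries. In G292, MG63 and TC71 the RNA was mainly assigned to the RefSeq transcript NM_003034.4, with 95.5% ± 4.12, 91.1% ± 9.94 and 100% of the gene's TPM (n = 3 each). In 7 of the low lines the most abundant form was NM_001304450.2, from so few reads that no share is given.

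B4GALNT1 was highest in G292 by a wide margin. Its TPM in the G292 libraries was 272, 307 and 303. In SAOS2 it was 42.6, 43.5 and 46.9, and in MHHES1 41.5, 48.0 and 39.7. In scaled counts G292 was at 396 ± 11.8 CPM and the next line, MHHES1, at 85.8 ± 10.6 CPM (SD, n = 3). G292 was far above both lines on either scale, while in TPM SAOS2 and MHHES1 overlapped each other and lay above U2OS at 27.4 ± 5.38 TPM.

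At the low end, EW24, KHOS, RDES, MG63 and HOS-MNNG held 6.09 to 7.85 TPM of B4GALNT1, and neighbours among these 5 lines overlapped. The median over lines was 18.1 TPM in Ewing sarcoma and 17.6 TPM in osteosarcoma. The SD of the line means on the log2(TPM + 1) scale was 1.52 for B4GALNT1 and 1.62 for B4GALT6, larger than for 92.6% and 93.8% of the genes tested, whose median was 0.524. The SD for B4GALT5 was 0.511, larger than for 48.3% of genes. These shares describe how unevenly the genes are spread over the lines and carry no test.

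Set side by side, the 2 genes of GD2 synthesis were both high only in G292, with 294 TPM of B4GALNT1 and 2.62 TPM of ST8SIA1. MG63 had as much ST8SIA1 within its spread but 7.36 ± 1.61 TPM of B4GALNT1. MHHES1 and SAOS2 had the reverse, with 43.1 and 44.4 TPM of B4GALNT1 and 0.0441 and 0.0442 TPM of ST8SIA1. TC71 was the Ewing sarcoma line with the most ST8SIA1 and had 21 ± 4.88 TPM of B4GALNT1.

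**Figure D2:**
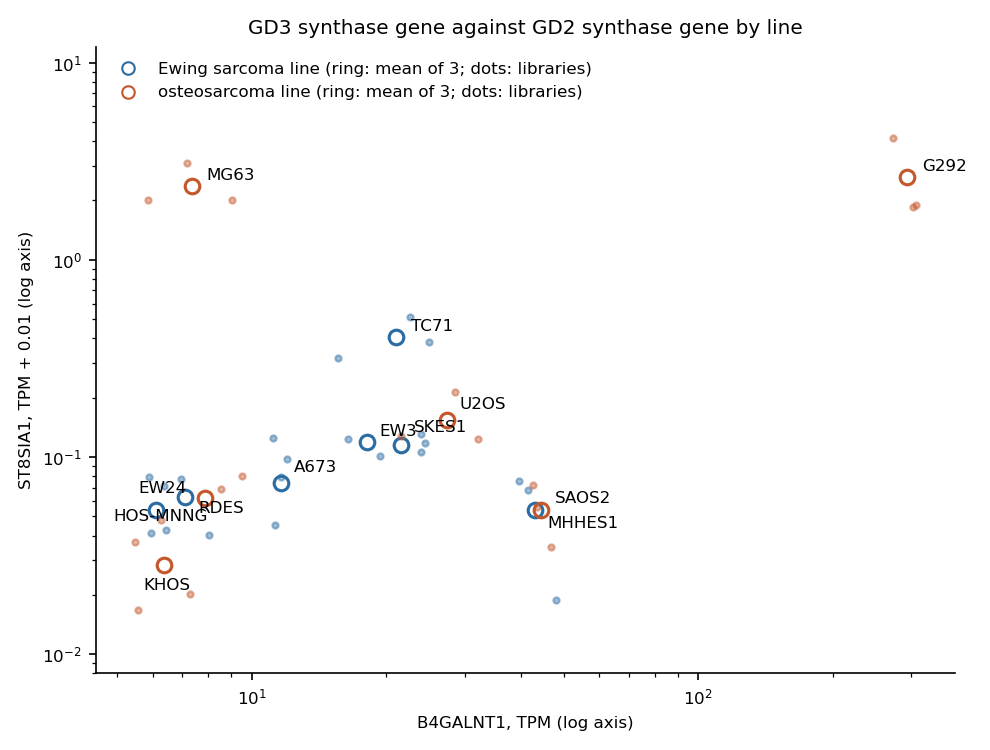
ST8SIA1 (TPM plus 0.01) against B4GALNT1 (TPM) on log axes in 13 lines; rings are means of 3 libraries and dots are libraries. G292 sits alone at 294 TPM of B4GALNT1 and 2.62 TPM of ST8SIA1, MG63 has 2.36 TPM of ST8SIA1 with 7.36 TPM of B4GALNT1, and 10 lines lie under 0.2 TPM of ST8SIA1.

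The genes whose levels over the 13 lines were most like those of ST8SIA1 were ADAMTS19, ADAM33, ADAMTS14, FAM180A and C1S, with Pearson r of log2(TPM + 1) from 0.980 down to 0.952 among 15565 genes. Each was high in the same 2 lines: ADAM33, a metalloprotease gene, was at 48.2 TPM in G292 and 26.9 TPM in MG63 and at most at 0.362 TPM in the other 11. C1S, a complement protease gene, was at 28.3 and 29.1 TPM there and at most at 2.05 TPM elsewhere. Without G292 these 5 correlations were 0.963, 0.952, 0.949, 0.963 and 0.915. These values rest on MG63 as the only high line left, for genes picked by their r in the same data. They cannot show that the likeness holds in other lines. ADAMTS19, ADAM33 and FAM180A, at most at 0.362 TPM in the other 11 lines, passed the minimum mean of 1 TPM only through G292 and MG63. For B4GALNT1 the 5 most alike were UBXN6, BAALC, PIP4K2C, WASHC5-AS1 and IMMT (r = 0.897 to 0.874), which fell to 0.752, 0.688, 0.681, 0.747 and 0.634 without G292. PIP4K2C lies near B4GALNT1 on its chromosome, and IMMT near ST3GAL5. BAALC was at 194 TPM in G292 and at most at 4.41 TPM in the other lines. These correlations are over 13 lines that share their library preparation and are given as descriptions.

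The make-up of B4GALNT1 by transcript was also read out. In G292, the 1966-nucleotide transcript NM_001276469.2 took 63% ± 1.5 of the gene's TPM and NM_001478.5, of 5368 nucleotides, 1.61% ± 1.71 (SD, n = 3). In the other 12 lines NM_001478.5 took 19.2% in SAOS2 to 63.9% in EW24, with a median of 44.1%. NM_001276469.2 took 17.7% in EW24 to 56.5% in SAOS2, with a median of 29%. The G292 means were outside the range of the other line means for both transcripts. By library, NM_001478.5 was at most at 3.42% in G292 and at least at 7.39% elsewhere, while NM_001276469.2 overlapped, at 61.6% to 64.6% in G292 and up to 68.2% in a HOS-MNNG library. NM_001276469.2 was also the leading form in HOS-MNNG, KHOS, MG63 and SAOS2. By estimated count NM_001276469.2 held 45.8% of the gene in G292 and XM_005268773.6, another long form, 27%. These transcripts were singled out after their values were seen, and the shares are estimates of how reads split among overlapping forms.

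**Figure D3:**
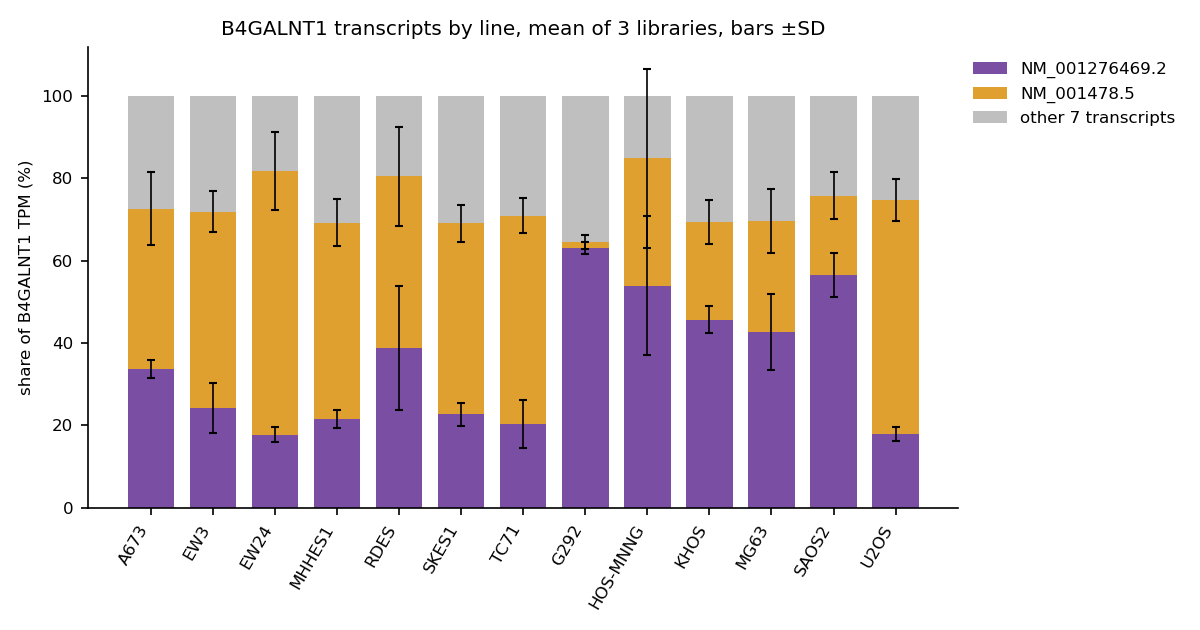
Share of B4GALNT1 TPM held by NM_001276469.2, NM_001478.5 and the other 7 listed transcripts in 13 lines, as means of 3 libraries with SD bars at the top of the named segments. NM_001478.5 falls to 1.61% in G292 against 19.2% to 63.9% in the other lines.

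B3GALT4, which takes GD2 and GM2 on to longer gangliosides, was low throughout. Its highest lines were KHOS, with 1.46, 2.53 and 2.09 TPM, and EW24, with 1.47, 1.82 and 2.41 TPM. They overlapped each other and lay above A673 at 0.966 ± 0.248 TPM, and this was the only one of 12 neighbouring pairs that did not overlap. U2OS was lowest at 0.0751 ± 0.0575 TPM, from 5 counts in 3 libraries.

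ST8SIA5 reached 1 TPM in 3 lines. G292 held 2.82, 2.27 and 2.12 TPM, A673 2.78, 2.03 and 2.08 TPM, and MHHES1 1.60, 1.27 and 1.53 TPM. G292 and A673 overlapped, and TMM-scaled counts put A673 first. The other 10 lines lay between 0.0606 TPM in U2OS and 0.664 TPM in SKES1.

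Because B4GALNT1 was so high in G292, the protein coding genes around it were read out as well, and the same window of 1 Mb either side was taken for all 8 members, each in its highest line. This was done after the levels had been seen. B4GALNT1 lay in an unbroken run of 10 genes, from KIF5A to MARCHF9 (chr12:57550044-57760411, 210 kb), that were all highest in G292. On the log2(TPM + 1) scale these genes were 1.61 to 4.58 above the median of the other 12 lines, with a median of 3.82, while the 27 genes of the window outside the run had a median of -0.31 and 4 of them were highest in G292. These 4, METTL1, EEF1AKMT3, TSFM and CTDSP2, lie just past MARCHF9 and were 2.10, 1.89, 1.55 and 2.08 above the median of the other lines, with CYP27B1 (0.25) and AVIL (1.46), highest in other lines, among them.

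CDK4, the cell cycle kinase gene in this run, was at 4091 ± 205 TPM in G292 against at most 466 TPM elsewhere. OS9 was at 1054 TPM, 4.22-fold above the next line, and KIF5A, a neuronal kinesin gene, at 95.8 TPM against at most 9.02 TPM. DCTN2, which lies further out on the KIF5A side, was at 128 TPM in G292 and up to 295 TPM in another line. In all, 13 of 36 neighbours (36.1%) were highest in G292, against 10% of 13460 genes with a mean of at least 1 TPM. DNA copy number is not part of these data, and its part in these levels was not tested.

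Other members also had neighbours that were high in the same line. Around ST3GAL5, 20 of 27 genes (74.1%) were highest in G292, with a median log2 difference of 1.56, among them CAPG at 1397 TPM against at most 634 TPM and IMMT at 376 TPM against at most 166 TPM. Around UGCG, 8 of 12 genes (66.7%) were highest in SAOS2, against 14.4% of all genes, with a median difference of 1.03. PTGR1 was at 92.9 TPM there and at most at 63.7 TPM elsewhere.

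ST8SIA1 had 3 of 10 neighbours highest in G292, namely KCNJ8, ABCC9 and CMAS. KCNJ8 and ABCC9 passed the minimum of 1 TPM through G292 itself, and with that minimum set on the mean of the other 12 lines 1 of 8 remained. ABCC9, a potassium channel subunit gene, was at 14.8 TPM in G292 but at 0.471 TPM in MG63, the other ST8SIA1-high line. CMAS, which makes the CMP-sialic acid that sialyltransferases use, was at 81 ± 4.2 TPM in G292, 69.7 ± 5.88 TPM in MG63 and at most 62.3 TPM in the other 11 lines. Of the remaining members, B3GALT4 had 2 of 39 neighbours highest in KHOS (4.26% of all genes were), ST8SIA5 1 of 13 in G292 (0 of 12 with the minimum on the other lines), B4GALT5 2 of 18 in RDES and B4GALT6 2 of 5 in RDES (12.1% of all genes were).

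**Figure D4:**
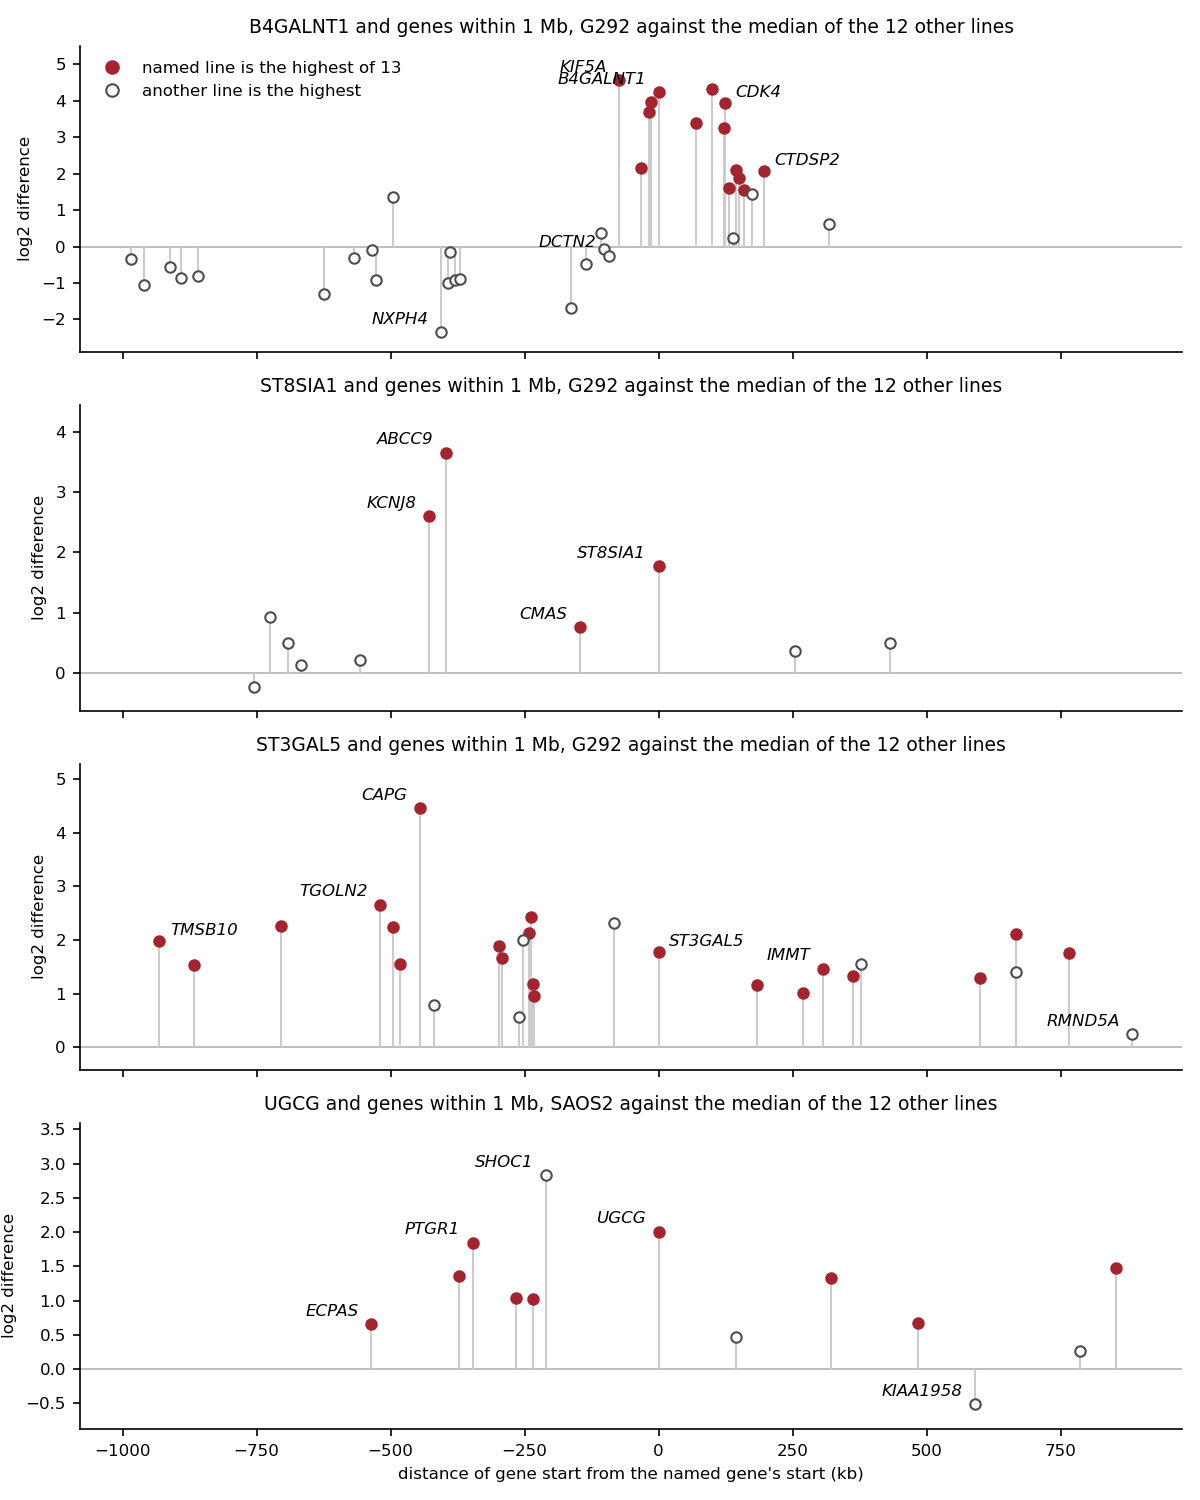
Difference in log2(TPM + 1) of the named line from the median of the 12 other lines for each protein coding gene with a mean of at least 1 TPM whose start lies within 1 Mb of a member, against distance in kb; filled points are genes highest in that line. Around B4GALNT1 the run from KIF5A to MARCHF9 has genes near or under 0 on the KIF5A side, while 4 more genes highest in G292 lie past MARCHF9; around ST3GAL5 and UGCG differences above 0 reach across most of the window.

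The tumour type comparison asked whether Ewing sarcoma and osteosarcoma lines differ, with the 3 libraries of a line summed so that 13 lines were the samples. No member was called at a false discovery rate under 0.05 (edgeR quasi-likelihood test, Benjamini-Hochberg), where 14.4% of 21975 genes were (5.99% higher and 8.46% lower in Ewing sarcoma). Unadjusted p was under 0.05 for ST8SIA1 (0.0277) and UGCG (0.0122), as for 6489 of all genes. The median log2 fold change of the 8 members was -0.66, with Ewing sarcoma lower, against -0.06 over all genes. The ranges of the line means overlapped for all 8 members, and 5.59% of genes had ranges that did not.

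UGCG had a log2 fold change of -1.07 (SE 0.37, edgeR adjusted p = 0.0695). ST8SIA1 had -2.90 (SE 1.18, edgeR adjusted p = 0.117), and DESeq2, which called 24.6% of genes, called both, with adjusted p-values of 0.0212 for ST8SIA1 and 0.0199 for UGCG. The ST8SIA1 value was -2.13 without G292 and -3.83 without TC71. In log2 TPM its difference was -0.50 with a pseudocount of 1 and -1.02 with 0.1 (exact permutation over lines, two-sided, adjusted p = 0.475 and 0.520). The call for UGCG depended on the lines counted, since without U2OS edgeR called it at an adjusted p of 0.0331. B4GALNT1 had a log2 fold change of -1.28 (SE 0.80, edgeR adjusted p = 0.313) that turned to 0.26 without G292 and was -1.91 with the effective transcript length in the model (edgeR adjusted p = 0.159). ST3GAL5 was at -0.89, B4GALT6 at -0.44, B3GALT4 at -0.10, B4GALT5 at 0.21 and ST8SIA5 at 0.51, with edgeR adjusted p-values from 0.180 to 0.944. B4GALT6 moved between -1.60 without RDES and -0.05 without HOS-MNNG, and in log2 TPM it was -1.06 and -2.03 with pseudocounts of 1 and 0.1. The 95% intervals were wide: for B4GALT6 the interval ran from -2.79 to 1.91 on the log2 scale, and for B4GALT5, the narrowest, from -0.28 to 0.70.

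Among the 7 other ganglioside sialyltransferase and modifying genes, 0 rose and 3 fell in Ewing sarcoma relative to osteosarcoma (8.46% of all genes fell), with a median log2 fold change of -0.28. ST3GAL1, a sialyltransferase of gangliosides and O-glycans, was at 7.05 ± 5.63 TPM over the 7 Ewing sarcoma lines and 40.9 ± 35.3 TPM over the 6 osteosarcoma lines (log2 fold change -2.66, edgeR adjusted p = 0.0129). ST6GALNAC4 was at 10.8 ± 3.23 and 28.5 ± 10.4 TPM (-1.48, edgeR adjusted p = 0.00876), and ST6GALNAC5 at 0.0539 and 3.72 TPM, the latter mostly from 1 line at 19 TPM (-6.09, edgeR adjusted p = 0.0471). With each of 13 lines left out in turn ST3GAL1 and ST6GALNAC4 were called every time, and ST6GALNAC5 in 3 of 13; without replicate 1 of every line ST6GALNAC5 was not called.

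Of 12 genes of ganglioside breakdown, 0 rose and 2 fell (5.99% and 8.46% of all genes did), and the median log2 fold change was -1.02, against -0.06 over all genes. They were HEXA, which codes for a lysosomal enzyme that removes the sugar added by B4GALNT1, and GBA2, a glucosylceramidase. HEXA was at 41.9 ± 15.1 TPM in Ewing sarcoma and 85.7 ± 22.6 TPM in osteosarcoma (-1.16, edgeR adjusted p = 0.0292), and GBA2 at 25.7 ± 6.25 and 45.8 ± 15 TPM (-0.95, edgeR adjusted p = 0.0150). GBA2 was called whichever line was left out, while HEXA lost its call without KHOS, MHHES1, MG63 or TC71. DESeq2 called 6 of the 12 genes lower and 1 higher, where it called 13.9% of all genes lower and 10.7% higher.

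Of 14 tested genes of ceramide supply, 1 rose and 1 fell (5.99% and 8.46% of all genes did), with a median of -0.00. KDSR, the reductase of ceramide synthesis, was at 131 ± 38 TPM in Ewing sarcoma and 16.7 ± 6.01 TPM in osteosarcoma (2.82, edgeR adjusted p = 0.000199), and the lowest Ewing sarcoma line at 91.9 TPM was above the highest osteosarcoma line at 24.9 TPM. SPTSSB, a small subunit of serine palmitoyltransferase, fell (-2.94, edgeR adjusted p = 0.0215) at levels of 0.0324 and 0.557 TPM, a call lost without EW24, G292 or TC71 and also when replicate 1, 2 or 3 of every line was left out. Of 6 genes of competing glycolipid branches, 1 rose (5.99% of all genes did): B3GNT5, which draws lactosylceramide into the lacto series, was at 21.8 ± 9.65 and 3.95 ± 2.74 TPM (2.29, edgeR adjusted p = 0.0223). KDSR and B3GNT5 were called whichever line was left out. None of 5 genes of CMP-sialic acid supply was called.

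In the sh908 cells, KCNN1, the target of the hairpin, was at 37.8, 35.3 and 18 TPM in the uninduced replicates 1, 2 and 3 and at 10.2, 13.7 and 7.75 TPM in the induced ones. In TPM every induced library was below every uninduced one, and the induced mean was 34.8% of the uninduced mean. In scaled counts induced replicate 2 was above uninduced replicate 3, so the groups overlapped on that scale. The log2 fold change was -1.53 with an edgeR adjusted p of 1, and -1.46 with an adjusted p of 0.00132 when same-numbered libraries were paired. A hairpin without a target is not part of the samples analysed here, so effects of the hairpin and of doxycycline cannot be told apart.

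No member passed the test between induced and uninduced cells. Of 14252 genes, 0% were called by edgeR, 94 had an unadjusted p under 0.05 and 2 were called by DESeq2. With replicate pairs as a block 0.512% of genes were called (0.253% higher and 0.260% lower), none of them a member. ST8SIA1 had counts of 0, 3 and 5 before and 2, 0 and 0 after induction and was not tested.

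B4GALNT1 was at 15.9, 14.8 and 12.6 TPM uninduced and 14, 15.4 and 19.3 TPM induced. In TPM it was higher in 2 of 3 pairs and in scaled counts in 1 of 3, and the groups overlapped (log2 fold change of scaled counts -0.02, 95% interval -0.75 to 0.70). UGCG was at 2.23, 1.70 and 10.1 TPM uninduced and 2.75, 2.21 and 9.17 TPM induced, so that replicate 3 was high in both groups. B4GALT5 was at 25.1, 20.3 and 43.1 TPM and at 26.2, 23.6 and 42.9 TPM in the same order.

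For UGCG and B4GALT5 the difference in TPM within each pair was smaller than that between replicate 3 and the other replicates. ST3GAL5 was at 10.3, 8.95 and 14.6 TPM uninduced and 11, 11.9 and 13.9 TPM induced, also overlapping. B3GALT4 was lower in all 3 pairs in TPM, but in scaled counts in 2 of 3. It was at 0.784, 1.17 and 3.21 TPM uninduced and 0.774, 1.11 and 1.76 TPM induced. Its log2 fold change was -0.40 unpaired and -0.35 paired, with edgeR adjusted p-values of 1 and 0.703. With pairing, the 95% intervals of the log2 fold change ran from -0.43 to 0.53 for B4GALNT1, from -0.26 to 0.45 for UGCG and from -0.07 to 0.32 for B4GALT5.

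ST8SIA5 was at 1.16, 1.27 and 0.737 TPM uninduced and 0.716, 0.919 and 0.787 TPM induced, and B4GALT6 at 1.09, 1.06 and 4.61 TPM and at 0.543, 0.820 and 5.30 TPM. Both overlapped between the groups. The median log2 fold change of the 7 members tested was -0.02, against -0.00 over all genes. None of the 5 pathway lists had a called gene, and with pairing 1 of 12 breakdown genes, the sialidase gene NEU4, was called higher (0.253% of all genes were). NEU4 was at 0.830, 0.694 and 0.128 TPM uninduced and 4.01, 3.05 and 0.192 TPM induced, so that the groups overlapped and replicate 3 was low in both, at 3 and 5 counts.

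**Figure D5:**
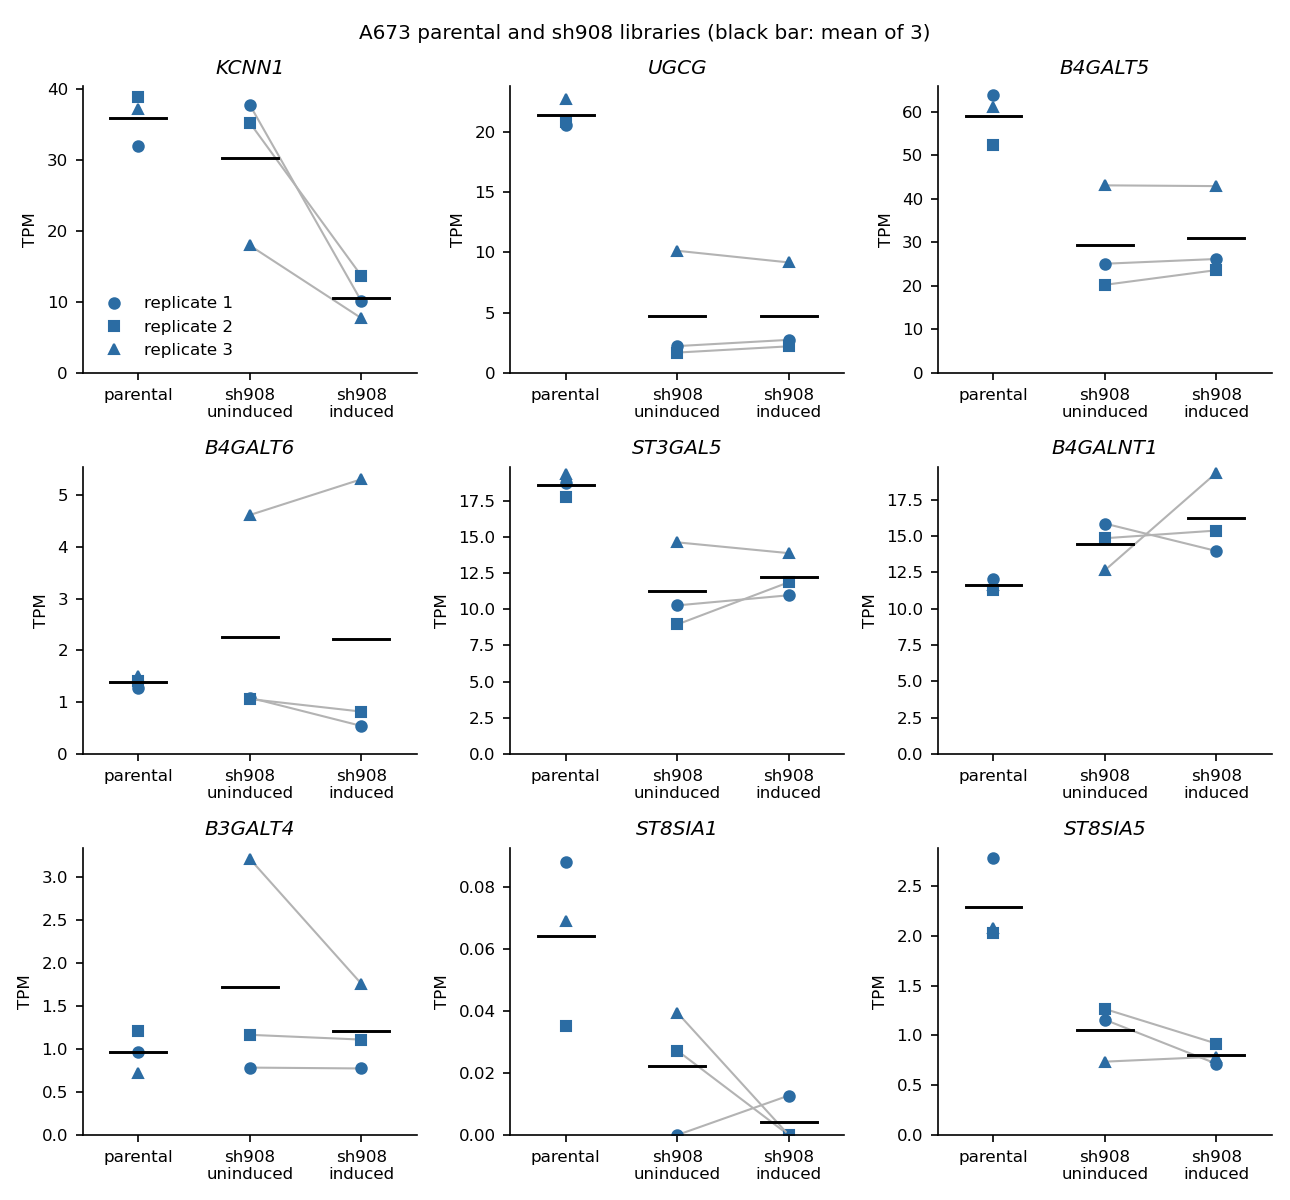
TPM of KCNN1 and of the 8 genes in parental A673, uninduced sh908 and induced sh908 cells; symbols mark replicates 1 to 3, grey lines join same-numbered sh908 libraries and black bars are means. KCNN1 is lower in all induced libraries, while UGCG, B4GALT5 and B4GALT6 differ more between replicate 3 and the other sh908 replicates than between induced and uninduced cells.

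The uninduced sh908 cells were also compared with parental A673, which shares the uninduced libraries with the comparison above. UGCG was at 20.5, 20.8 and 22.7 TPM in parental cells and at 2.23, 1.70 and 10.1 TPM in uninduced sh908 cells. B4GALT5 was at 63.8, 52.5 and 61.2 TPM and then at 25.1, 20.3 and 43.1 TPM, and ST3GAL5 at 18.7, 17.8 and 19.3 TPM and then at 10.3, 8.95 and 14.6 TPM. In TPM all uninduced libraries were below all parental libraries for these 3 genes and for ST8SIA5, 4 of 7 members tested, as for 38.8% of all genes. Replicate 3 was the closest to the parental level for UGCG, B4GALT5 and ST3GAL5, and the farthest for ST8SIA5.

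UGCG was the only member called, with a log2 fold change of -1.90 on scaled counts (SE 0.50, edgeR adjusted p = 0.0487), where 15.1% of 15778 genes were called (6.42% lower). DESeq2, which called 26.4% of genes, called UGCG, B4GALT5 and B4GALNT1. Leaving out uninduced replicate 1 or 2, or any parental library, raised the edgeR adjusted p of UGCG to between 0.109 and 0.159, while leaving out uninduced replicate 3 gave a log2 fold change of -2.75 but also calls for 62.3% of genes (33.2% lower). B4GALT5 was at -0.61 (edgeR adjusted p = 0.0513) and B4GALNT1 at 1.08 (edgeR adjusted p = 0.0527). Without uninduced replicate 3 both were called, B4GALT5 at -0.72 (edgeR adjusted p = 3.82e-05) and B4GALNT1 at 1.37 (edgeR adjusted p = 6.26e-08).

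B3GALT4 was at 1.17, B4GALT6 at 0.93, ST3GAL5 at -0.24 and ST8SIA5 at -0.60 on the log2 scale of counts, with edgeR adjusted p-values of 0.144 to 0.294. B3GALT4 stood at 0.867, 1.12 and 0.612 CPM (scaled counts) in parental and 1.13, 1.68 and 2.97 in uninduced cells, and B4GALT6 at 3.64, 3.96 and 3.90 and at 4.58, 4.40 and 12.8. On this scale all uninduced libraries were above all parental ones for both genes and for B4GALNT1, as for 20.1% of all genes, and without uninduced replicate 3 the log2 fold change of B4GALT6 was 0.22. In TPM both genes overlapped between the groups, B3GALT4 at 0.967, 1.21 and 0.718 and then 0.784, 1.17 and 3.21, and B4GALT6 at 1.28, 1.4 and 1.5 and then 1.09, 1.06 and 4.61. ST8SIA5 was lower in all uninduced libraries in TPM, at 2.78, 2.03 and 2.08 and at 1.16, 1.27 and 0.737, while in scaled counts the groups overlapped. ST8SIA1 was at 0.0881, 0.0353 and 0.0689 TPM and at 0, 0.0272 and 0.0394 TPM and was not tested.

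The size of these differences depended on the scale. The median difference over the 15778 genes was -0.32 in log2(TPM + 1) and 0.01 in scaled counts. On the log2(TPM + 1) scale B4GALNT1 differed by 0.28, ST3GAL5 by -0.70, B4GALT5 by -1.05 and UGCG by -2.28, to be read against that median. With B4GALNT1, the share of NM_001478.5 in the gene's TPM went from 38.9% ± 8.87 to 61.2% ± 14.7, and with the effective transcript length in the model the log2 fold change of B4GALNT1 was 0.81 (edgeR adjusted p = 0.0711).

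The libraries themselves also differed between these groups. The fragment length implied by the effective lengths was 181 to 191 nucleotides in parental A673 and 142 to 159 in uninduced sh908 libraries. Genes with at least 10 counts numbered 16426 to 17029 in the former and 13379 to 16083 in the latter, and the top 100 genes took 30.7% to 31.7% and 36.2% to 44.2% of the TPM. The induced libraries were like the uninduced ones, at 153 to 170 nucleotides and 13601 to 15979 genes. The part of these differences in the members' changes was not tested, and it cannot be told apart from that of the vector.

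Of the 6 other ganglioside genes tested, 4 rose in uninduced sh908 cells on scaled counts (8.71% of all genes did) and 0 fell, with a median log2 fold change of 0.73. They were ST3GAL2 (0.73, edgeR adjusted p = 0.0139), ST6GALNAC6 (0.68, edgeR adjusted p = 0.0234), ST6GALNAC4 (0.80, edgeR adjusted p = 0.0261) and ST3GAL1 (0.73, edgeR adjusted p = 0.0487), all sialyltransferase genes. In TPM their means were 9.61 and 11.9, 29.4 and 35.2, 11.2 and 14.6, and 2.72 and 3.39 in parental and uninduced cells in that order, differences of smaller size. Leaving out any parental library, or uninduced replicate 2, left 0 of these calls, leaving out uninduced replicate 1 left 2 and leaving out uninduced replicate 3 gave 5 higher and 1 lower.

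Of 13 ceramide supply genes tested, 2 rose and 1 fell (8.71% and 6.42% of all genes did). SPTLC3, a subunit of serine palmitoyltransferase, the first enzyme of sphingolipid synthesis, was at 19.3 ± 3.43 TPM in parental and 103 ± 13.5 TPM in uninduced cells (2.87, edgeR adjusted p = 0.00351). CERS1, a ceramide synthase gene, rose by 0.72 (edgeR adjusted p = 0.0462), and PLEKHA8, which codes for a glucosylceramide transfer protein, fell by 0.55 (edgeR adjusted p = 0.0319). Of 6 genes of competing branches, against the same shares over all genes, A4GALT (0.83, edgeR adjusted p = 0.0274) and GAL3ST1 (1.51, edgeR adjusted p = 0.0397) rose and B3GALNT1 fell from 0.352 to 0.0179 TPM (-3.77, edgeR adjusted p = 0.0247). None of 12 breakdown genes and none of 5 CMP-sialic acid genes was called. In induced cells SPTLC3 stood at 94.3 ± 14.4 TPM. With 1 of the 6 libraries left out SPTLC3 lost its call without parental replicate 1 or 2. CERS1, PLEKHA8 and the 3 genes of competing branches kept theirs, with 1 library left out, only without uninduced replicate 3, where 62.3% of all genes were called. Then 6 ceramide genes rose and 4 fell, 3 competing branch genes rose and 2 fell, and 4 breakdown genes rose and 2 fell.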

How the data were processed

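RNA of 45 libraries had been sequenced from TruSeq Stranded mRNA libraries, per the labels. Per the submitters' processing notes the tools were fastp 0.19.5 and kallisto 0.46.2 with GRCh38.p14. The authors deposited for each library estimated counts (expected counts) and TPM of 177816 transcripts. The effective length per transcript is an other value, per the file headers. Transcripts were assigned to genes with the RefSeq table of GRCh38.p14 (95.6% matched). No gene was found for 7850 transcripts, which hold 0.915% to 1.60% of the estimated count of a library and stayed out. Gene values are sums over transcripts.

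Counts were rounded and tested over all genes with edgeR 4.0.16 (filterByExpr, TMM, robust quasi-likelihood, Benjamini-Hochberg, calls under 0.05) in R 4.3.3. The 95% intervals use the test's own degrees of freedom. Line comparisons used sums of 3 libraries. Alternatives used DESeq2 1.42.0, other filters and scalings, a length offset, replicate blocks, left-out samples and exact permutation over 1716 splits of the lines. The steps were tested on simulated data. Same-numbered sh908 libraries deviated together (correlations 0.683, 0.582 and 0.881, all over 0.1), so the numbers were taken as pairs. Induced replicate 1 also correlated with uninduced replicate 2 (0.517), and induced replicate 2 with uninduced replicate 1 (0.608). The correlations thus set replicate 3 apart but do not tell pair 1 from pair 2, and the paired results rest on the numbering. The figures were drawn with matplotlib 3.10.9 in Python 3.11.15.

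The members, lists and tests were chosen with earlier results of these data known. The rule for named genes took the 8 members, KCNN1, up to 4 called genes of each of 5 pathway lists by smallest adjusted p, and the 5 genes most like B4GALNT1 and ST8SIA1. Neighbouring genes and transcripts were chosen after their values were seen. Some listed genes are not reported here, and the counts for ganglioside breakdown leave out 1 gene.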

Additional observations from a re-analysis of the deposited data

Results flagged for a closer look

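In 9 of 16 sets of line means (8 genes in 7 Ewing sarcoma or 6 osteosarcoma lines), 1 line stood apart from the others of its tumour type by Dixon's criterion at 95%. Chance flags about 1 in 20 groups of normally distributed values, but over all genes tested between the tumour types 18.7% of 43935 such sets were past it in TPM. All 9 stood at the high end. On the log2(TPM + 1) scale, tried after the data were seen, 2 of 16 sets (11.2% over all genes) were past the criterion, ST8SIA1 in TC71 and ST8SIA5 in G292, while B4GALNT1 in G292 was not (gap 0.507 of the range). The 9 sets past the criterion in TPM are named next. In the Ewing sarcoma lines they were B4GALNT1 in MHHES1 at 43.1 TPM (next SKES1, 21.6), ST8SIA1 in TC71 at 0.395 TPM (next EW3, 0.109), B3GALT4 in EW24 at 1.9 TPM (next A673, 0.966), B4GALT5 in RDES at 111 TPM (next EW24, 60.1) and B4GALT6 in RDES at 36.9 TPM (next MHHES1, 12). In the osteosarcoma lines they were B4GALNT1 in G292 at 294 TPM (next SAOS2, 44.4), B3GALT4 in KHOS at 2.03 TPM (next G292, 0.787), ST8SIA5 in G292 at 2.4 TPM (next MG63, 0.313) and UGCG in SAOS2 at 76.2 TPM (next MG63, 33.9). The gap to the next line was 0.579 to 0.892 of the whole range. G292 and RDES each appear for 2 genes.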

How the results depend on the processing

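Of the values recomputed under other settings, 410 kept their direction and side of the threshold or moved little, 12 became calls, 6 lost a call, 35 moved and 27 changed sign; the cause was not tested. Between the tumour types, DESeq2 called 5406 genes and 2 members (ST8SIA1 at -2.92), and leaving out lines gave 2310 to 3172 genes and 0 to 1 member. Leave-one-out ranges that crossed 0 were -1.59 to 0.26 for B4GALNT1 (above 0 without G292), -0.54 to 0.85 for B3GALT4 (0.04, 0.01, 0.01 and 0.85 without MHHES1, RDES, TC71 and KHOS) and -0.13 to 2.13 for ST8SIA5 (below 0 without A673). B3GALT4 was at 0.20 with the HOS derivatives summed and 0.12 and 0.44 in log2 TPM with pseudocounts of 1 and 0.1, compared by exact permutation.

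With doxycycline, the calls were 2 by DESeq2, 12 with all 45 libraries in 1 model, 73 with the replicate block, and 7 to 167 (10, 7 and 167) with the block and a pair left out, with 0 members in each. B4GALNT1 turned to 0.14 with the length offset, 0.052 with the block, and 0.22 and 0.20 with the block without pair 1 or 2. In the block without pair 1, ST3GAL5 was at -0.0034, UGCG at -0.0187 and B4GALT6 at 0.0025. Leaving out 1 library gave -0.30 to 0.14 for B4GALNT1, -0.65 to 0.093 for B3GALT4, -0.64 to 0.91 for UGCG and -1.37 to 0.69 for B4GALT6.

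Between uninduced and parental cells, gene calls were 4169 by DESeq2, 319 with the replicate block, 7558 with all 45 libraries and 2 to 10202 with a library left out (4, 2 and 8 without parental replicates 1 to 3, and 1377, 266 and 10202 without uninduced ones). Member calls were 2 with the other size factors (15.2% of all genes were called), 2 without the filter (6.34%), 3 by DESeq2 (26.4%), 4 with all 45 libraries (32%), 0 with the replicate block (2.02%; UGCG -2.17, adjusted p = 0.0566) and 0 to 3 with a library left out. Same-numbered libraries of these groups correlated at 0.0455, 0.0866 and 0.25, so the numbers were not taken as pairs. With that block 1 list gene (SPTLC3) was called. In TMM-scaled counts ST8SIA5 was highest in A673, a log2 ratio of G292 to A673 of -0.0354.

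Depth limits the low values: over 3 libraries the fewest counts in a line were 5 for B3GALT4, 10.5 for ST8SIA1, 22.1 for B4GALT6 and 37.4 for ST8SIA5.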
